A study of Mus musculus with 16 samples.

Results

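Cytochrome P450 genes in the fat of mice lacking the glucocorticoid receptor in adipose tissue were examined with 1-colour Agilent arrays. P450 enzymes are haem-containing oxygenases that take electrons from a reductase and insert oxygen into steroids, sterols, vitamins, fatty acids, drugs and environmental chemicals. Their families are numbered by sequence, and many are best known from liver or from the adrenal cortex. In fat they are known for retinoic acid and oxysterol turnover, for the oxidation of polyunsaturated fatty acids and for xenobiotic metabolism. Several are regulated by nuclear receptors, among them the glucocorticoid receptor itself, a steroid-activated transcription factor encoded by Nr3c1.

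The genes were chosen by symbol (Cyp, a family number, a letter and a gene number, which leaves out Cyp51) and by detection, meaning that some group had the same probe well above background on each of its 4 arrays. Of 76 such symbols on the array, 51 passed, out of 15460 named genes tested in all. Detection is itself a measured level, so a gene that passed only through the group in which it was high could not show the opposite order. This concerns Cyp2b13, Cyp2b9, Cyp2c40 and Cyp2c65, detected in full only on brown control arrays, and Cyp21a1 and Cyp3a57, detected in full only on brown knockout arrays. It also concerns Cyp3a25 and Cyp4a14, detected in full only in the 2 brown groups, and Cyp2c29, detected in full only in the 2 control groups. At the other end, 34 of the 51 were detected on all arrays of all 4 groups. Just outside the limit, Cyp2a5, Cyp2b23 and Cyp4f15 reached 3 of 4 arrays in their best group. A further 9 symbols reached 2 arrays, 7 reached 1 and 6 reached 0, among them Cyp11b2 and Cyp24a1. By group, 36 members were detected in full in white knockout, 43 in white control, 45 in brown knockout and 46 in brown control fat.

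The 4 groups, of 4 arrays each, were white fat of knockout mice (AdipoKO_WAT), white fat of control mice (CTL_WAT), brown fat of knockout mice (AdipoKO_BAT) and brown fat of control mice (CTL_BAT). All mice were male, controls were wild type by the design text, and the knockout removed the receptor in adipose tissue. Neither the Cre driver nor strain, age or fat depot is given in the sources used here. In the white groups 2 distinct knockout samples were set against 2 control samples, and in the brown groups 2 against 3, because 9 of 24 within-group array pairs were closer than the scanner's stated error and were averaged and counted once. Arrays 2, 3 and 4 of each knockout group formed 1 sample each. White control arrays 1 and 4 formed 1 sample, white control arrays 2 and 3 another, and brown control arrays 2 and 3 likewise formed 1. The design text calls all 4 arrays of a group biological replicates, and the p-values measure only the spread between the 9 samples.

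On each array, 67.3% to 77.0% of the 43379 spots were well above background and none was saturated. A level is given as log2 intensity minus the 75th percentile of its array, so that 0 is the 75th percentile and −3 lies 8-fold below it. A difference is on the same log2 scale, with the standard error (SE) of the limma fit. Nr3c1 read 1.58, 1.31, 1.30 and 1.42 on white knockout arrays, against 2.49, 2.08, 2.34 and 2.49 on white control arrays. In the other fat it read 1.57, 1.66, 1.83 and 1.80 on brown knockout arrays, against 2.53, 2.71, 2.68 and 2.34 on brown control arrays. Its groups did not overlap in either fat, and the differences of −0.89 in white and −0.85 in brown did not pass adjustment. Whether its probe lies in the deleted part is not known, so it is only a partial check of the labels. Adipocyte markers had sample medians of 4.48 to 7.0. Skeletal muscle markers were called higher in brown than in white control fat for 10 of 10 genes. In brown fat 10 of 10 had lower knockout means (median −0.79), and 0 were called. Their summed linear level was 1690 to 2754 in brown knockout and 3063 to 4239 in brown control fat. In white fat it was 9.52 to 9.75 in knockout and 3.51 to 4.85 in control. The part of muscle in the P450 differences between genotypes was not tested. The brown adipocyte markers had a median of 1.43 on brown control arrays 2 and 3, against 6.61 on brown control array 1 and 7.97 on brown control array 4. Their summed linear level differed less, at 420 on brown control arrays 2 and 3, 656 on array 1 and 1226 on array 4. It was 435 to 579 in the brown knockout samples. In bulk tissue, fewer cells of a type and less RNA per cell cannot be told apart.

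The promoters of the genes on which the results turn are shown first, as the 250 bases before the RefSeq start site (GRCm38.p6). Cyp2f2, Cyp20a1 and Cyp27a1 are 3 of the 4 genes whose knockout arrays all lay below the control arrays in both fats. Cyp4f39 and Cyp3a25 were called between brown and white control fat. Capitals mark AGAACA, the half-site that the glucocorticoid receptor recognises, and AGGTCA, the half-site shared by many nuclear receptors, each searched on both strands (TGTTCT and TGACCT on the reverse).
Cyp2f2 (chr7:27119705-27119954, plus strand): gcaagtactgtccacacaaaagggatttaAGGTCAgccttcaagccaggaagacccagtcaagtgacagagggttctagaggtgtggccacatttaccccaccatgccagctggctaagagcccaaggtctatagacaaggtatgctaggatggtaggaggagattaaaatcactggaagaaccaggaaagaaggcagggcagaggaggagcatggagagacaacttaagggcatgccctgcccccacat
Cyp20a1 (chr1:60343050-60343299, plus strand): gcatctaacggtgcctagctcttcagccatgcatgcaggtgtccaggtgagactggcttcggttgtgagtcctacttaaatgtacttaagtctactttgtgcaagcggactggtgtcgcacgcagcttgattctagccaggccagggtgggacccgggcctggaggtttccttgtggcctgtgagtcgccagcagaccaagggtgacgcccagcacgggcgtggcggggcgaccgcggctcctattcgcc
Cyp27a1 (chr1:74713285-74713534, plus strand): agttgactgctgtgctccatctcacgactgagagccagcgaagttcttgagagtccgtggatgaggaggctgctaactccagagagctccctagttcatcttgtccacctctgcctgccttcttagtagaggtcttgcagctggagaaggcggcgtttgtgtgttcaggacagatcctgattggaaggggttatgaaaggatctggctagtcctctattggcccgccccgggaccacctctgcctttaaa
Cyp4f39 (chr17:32452473-32452722, plus strand): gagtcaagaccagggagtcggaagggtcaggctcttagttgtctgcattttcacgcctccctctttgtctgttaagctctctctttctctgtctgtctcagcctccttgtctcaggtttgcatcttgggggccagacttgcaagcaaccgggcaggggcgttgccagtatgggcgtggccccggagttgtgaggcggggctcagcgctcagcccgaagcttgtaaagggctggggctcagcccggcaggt
Cyp3a25 (chr5:146009619-146009868, minus strand): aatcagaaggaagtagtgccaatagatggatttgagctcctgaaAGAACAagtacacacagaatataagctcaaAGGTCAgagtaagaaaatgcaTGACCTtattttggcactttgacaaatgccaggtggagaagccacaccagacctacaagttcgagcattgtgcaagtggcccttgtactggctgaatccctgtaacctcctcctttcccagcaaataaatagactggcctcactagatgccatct

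The table held windows for 41 of the 51 genes. AGAACA or its reverse lay in 10 of these 41 genes' windows of 300 bases, and in 19.0% of all 32851 promoter windows in the table. AGGTCA or its reverse also lay in 10 of the 41, and in 16.3% of all windows. The full palindrome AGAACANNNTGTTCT lay in 0 of the members' windows and in 3 of all windows. Cyp2f2 carried AGGTCA at position −221 and a single AGAACA at position 34, after the start site, in this stretch of 30 bases (chr7:27119975-27120004, plus strand).
Cyp2f2: acacaagaacttcAGAACAttgctgcagaa

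Cyp20a1, Cyp27a1 and Cyp4f39 held neither half-site, which says only that these letters are not in these windows. Cyp3a25 held all of them, with AGAACA at −206, AGGTCA at −176 and TGACCT at −155 from 1 of its 2 start sites, and at −207, −177 and −156 from the other. Its neighbour in sequence Cyp3a57 held the same 3 at −204, −174 and −153, and the windows of this pair were identical at 89.7% of aligned positions. The windows of Cyp2b13 and Cyp2b9 were identical at 298 of 300 positions. Probes for such close relatives may read each other's RNA, so the values of Cyp3a25 and Cyp3a57, of Cyp2b13 and Cyp2b9, and of the other Cyp2c, Cyp2d and Cyp4a genes are uncertain as to which copy they measure.

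The first question was which P450 genes differ between knockout and control fat. Taken gene by gene, 0 of 51 passed the threshold in white fat and 0 of 51 in brown fat (limma, adjusted p below 0.05 over 15460 genes). The same fit called 0.0% of all genes in white and 0.0% in brown fat. At an unadjusted p below 0.05, 4 members had lower values in white knockout fat (Cyp2f2, Cyp20a1, Cyp27a1 and Cyp2u1) and 0 had higher ones, against 6.39% of all genes lower and 3.57% higher. In brown knockout fat 9 members were lower at that level and 0 higher, against 4.11% of all genes lower and 2.93% higher. Of those 9, Cyp2b13, Cyp2b9 and Cyp2c40 had been detected in full only in brown control fat.

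Counted by mean, 38 of 51 members were lower in white knockout than in white control fat, with a median difference of −0.46, against 52.3% of all genes and a median of −0.03. In brown knockout fat 42 of 51 were lower, with a median of −0.45, against 59.9% and −0.12 for all genes. Among the 34 detected on every array, 26 were lower in white and 27 in brown knockout fat. Of the 13369 genes detected on every array, 53.35% were lower in white and 60.19% in brown knockout fat. These shares moved with the scaling. With unscaled values 41 of 51 were lower in white (65.2% of all genes) and 26 of 51 in brown (25.0% of all genes), where the median over all genes shifted to 0.31. With normexp background correction 30 of 51 were lower in white (47.3% of all genes) and 47 of 51 in brown (68.0%). Without the 3-array white knockout sample, 30 of 51 were lower in white, with a median of −0.12, against 55.2% of all genes and a median of −0.06. That count was near the background.

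Knockout arrays lay wholly below control arrays for 11 of 51 members in white fat, against 18.3% of all genes, and for 9 of 51 in brown fat, against 16.5%. They did so in both fats for 4 members, Cyp2f2, Cyp20a1, Cyp27a1 and Cyp2u1, against 6.9% of all genes, so that this count was near the background. Only the 4 distinct samples of white fat and the 5 of brown fat stand behind the 16 arrays. Counted as 16 separate arrays, 15 members passed in white fat, when 44.8% of all genes did, and 12 in brown fat, when 30.6% did. The difference of the knockout effect between the fats was called for 0 of 51 members and for 0.0% of all genes.

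**Figure D1:**
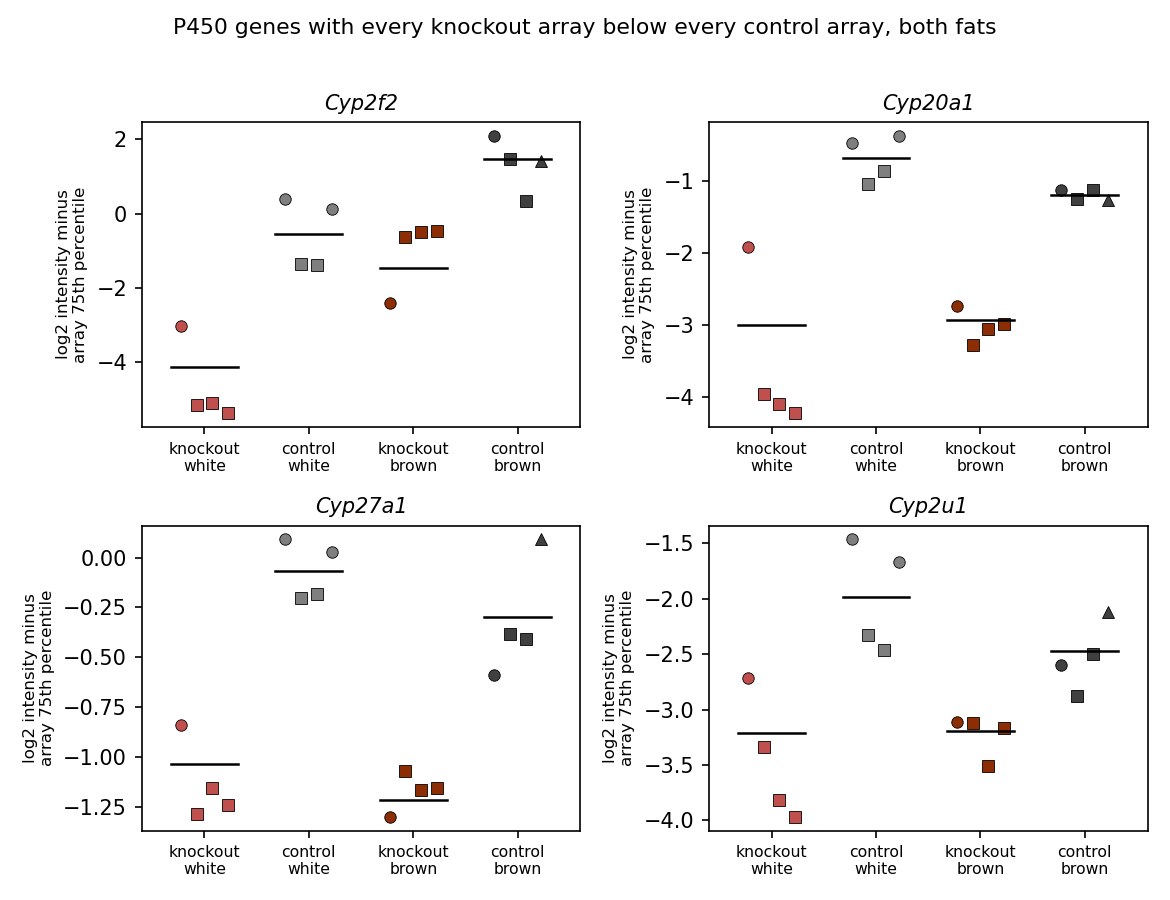
Levels of Cyp2f2, Cyp20a1, Cyp27a1 and Cyp2u1 on each array (log2 intensity minus the array's 75th percentile; points of 1 shape within a group are arrays averaged as 1 sample, bars are means over samples). Within each fat, the knockout arrays stand left of the control arrays and all lie below them.

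Cyp2f2, known from mouse lung as the enzyme of club cells that activates naphthalene, had the largest difference of any member in white fat. It read −3.03, −5.16, −5.10 and −5.37 on white knockout arrays, against 0.38, −1.35, −1.37 and 0.13 on white control arrays. The white arrays of the 2 genotypes did not overlap, and only 2 of the 4 white knockout arrays were well above background. The difference was −3.57 ± 0.95 (SE, adjusted p = 0.42). In brown fat it read −2.39, −0.63, −0.49 and −0.46 on brown knockout arrays, against 2.10, 1.47, 0.34 and 1.42 on brown control arrays. The brown groups did not overlap either, and the difference was −2.94 ± 0.87 (SE, adjusted p = 0.62). Within the single slide that held both genotypes, the difference was −3.47 in white and −2.40 in brown fat. The size differed between samples of a group: the white difference was −4.66 without white knockout array 1 and −2.48 without white knockout arrays 2, 3 and 4. Over the 9 samples, the members most like Cyp2f2 were Cyp4f39 (Pearson r = 0.75), Cyp20a1 (r = 0.73) and Cyp2b9 (r = 0.68), a description of samples that share arrays, slides and tissue.

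Cyp20a1 is an orphan P450, with no established substrate. It read −1.92, −3.96, −4.10 and −4.23 on white knockout arrays, against −0.46, −1.03, −0.86 and −0.37 on white control arrays. Array 1 of the white knockout lay between the other knockout arrays and the controls. The difference was −2.33 ± 0.63 (SE, adjusted p = 0.42). In brown fat the levels were −2.74, −3.29, −3.05 and −3.0 on brown knockout arrays, against −1.12, −1.25, −1.13 and −1.27 on brown control arrays, with a difference of −1.73 ± 0.58 (SE, adjusted p = 0.62). The spread among brown control arrays was small beside that difference. Within 1 slide the differences were −2.32 in white and −1.82 in brown fat.

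Among the 6 steroid and oxysterol genes, 3 had lower means in white knockout fat and 4 in brown. Cyp27a1, the mitochondrial sterol hydroxylase that opens the acidic route of bile acid synthesis, read −0.84, −1.29, −1.16 and −1.24 on white knockout arrays, against 0.09, −0.20, −0.18 and 0.03 on white control arrays. It read −1.30, −1.07, −1.17 and −1.16 on brown knockout arrays, against −0.59, −0.38, −0.41 and 0.09 on brown control arrays. Its groups did not overlap in either fat, and the knockout levels lay within a narrow range. The differences were −0.97 ± 0.29 (SE, adjusted p = 0.43) in white and −0.92 ± 0.26 (SE, adjusted p = 0.62) in brown fat. Cyp7b1, the oxysterol hydroxylase that clears side-chain oxysterols, had the opposite order in white fat. It read 0.38, −0.25, −0.07 and −0.14 on white knockout arrays, against −0.77, −0.92, −0.79 and −0.78 on white control arrays. Its 4 white knockout arrays all lay above the 4 white control arrays, with a difference of 0.93 ± 0.45 (SE, adjusted p = 0.52), which did not pass the test. Brown fat gave −2.51, −1.41, −1.37 and −1.40 on brown knockout arrays, against −1.54, −2.24, −2.16 and −2.47 on brown control arrays, and these arrays overlapped.

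Cyp17a1, the steroid hydroxylase and lyase of androgen synthesis, read −0.66, −0.73, −0.43 and −0.82 on brown knockout arrays, against −0.22, −0.04, −0.50 and −0.24 on brown control arrays. The brown groups overlapped, and the difference was −0.42 ± 0.17 (SE, adjusted p = 0.62). In white fat it read −0.38, 0.09, −0.20 and −0.44 on white knockout arrays, against −0.25, −0.29, −0.43 and −0.45 on white control arrays, with a difference of 0.08 ± 0.19 (SE, adjusted p = 0.86). Cyp21a1, the steroid hydroxylase of the adrenal cortex, was well above background on 2 of 4 arrays in white knockout, white control and brown control fat and on 4 of 4 in brown knockout fat, with differences of 0.33 in white and 0.63 in brown fat. The summed linear level of the 4 tested adrenal cortex markers was 4.11 to 5.81 in brown knockout and 4.48 to 5.95 in brown control fat, and 7.07 to 10.2 in white knockout and 10 to 12.1 in white control fat. Its part in the level of Cyp21a1 was not tested. Cyp46a1, the neuronal cholesterol hydroxylase, and Cyp39a1, which acts on its product, differed by −0.24 and −0.16 in white fat and by −0.32 and −0.46 in brown fat, with no p below 0.05.

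The 4 vitamin D and retinoic acid genes had lower knockout means in both fats, and 0 had a p below 0.05. In brown fat 2 of them kept that order without brown control array 4. Cyp2r1, which makes the circulating form of vitamin D, differed by −0.85 ± 0.50 (SE, adjusted p = 0.56) in white and by −0.02 in brown fat. Cyp26b1, which degrades retinoic acid, read 1.33, 0.79, 0.83 and 0.90 on white knockout arrays, against 2.45, 0.72, 0.89 and 2.45 on white control arrays. White control arrays 1 and 4 lay above every other array of that gene. In brown fat it read −1.10, 0.65, 0.57 and 0.62 on brown knockout arrays, against 1.08, 0.93, 0.89 and −1.13 on brown control arrays. Knockout array 1 and control array 4 were both low, so neither tissue separated by genotype. Cyp27b1, which makes the active hormone, differed by −0.55 in white and −0.53 in brown fat, and Cyp26a1 by −0.03 and −0.14.

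**Figure D2:**
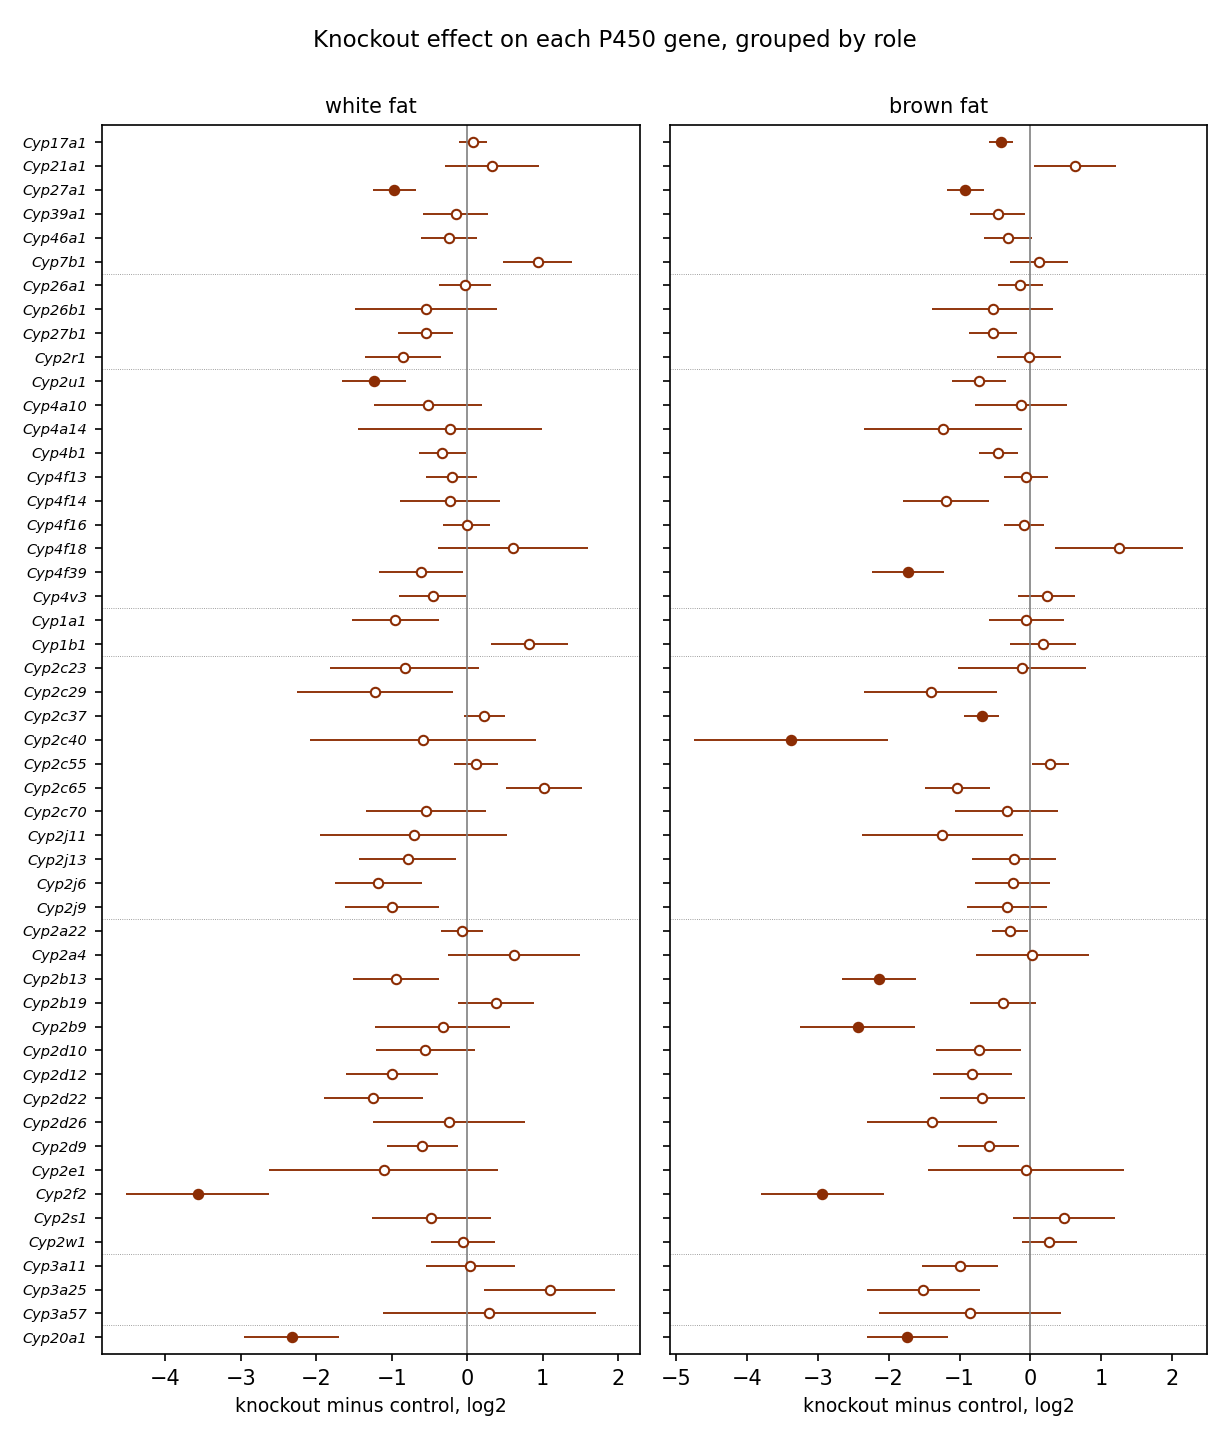
Difference between knockout and control fat (log2, knockout minus control) for each of the 51 genes, in white fat on the left and brown fat on the right, with genes in rows grouped by role between dotted lines. Points are estimates, bars 1 SE of the fit, and filled points have an unadjusted p below 0.05 (4 in white and 9 in brown, all lower in knockout), none of which passed adjustment. Of the 9, Cyp2b13, Cyp2b9 and Cyp2c40 were detected in full only in brown control fat.

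Of the 10 genes for fatty acid hydroxylation, 9 had lower means in white knockout fat and 8 in brown, or 6 without brown control array 4. Cyp2u1, a hydroxylase of arachidonic acid, read −2.72, −3.34, −3.82 and −3.97 on white knockout arrays, against −1.46, −2.33, −2.46 and −1.67 on white control arrays. Its white groups did not overlap, with a difference of −1.23 ± 0.42 (SE, adjusted p = 0.46). In brown fat the levels were −3.12, −3.12, −3.51 and −3.17 on brown knockout arrays, against −2.60, −2.88, −2.50 and −2.12 on brown control arrays. Here the gap between the groups was narrow and the difference was −0.72 ± 0.39 (SE, adjusted p = 0.62). Cyp4f39, the mouse counterpart of the human skin enzyme that hydroxylates very long fatty acids for acylceramides, read −3.09, −3.27, −3.47 and −3.42 on brown knockout arrays, against −2.20, −0.54, −0.56 and −1.78 on brown control arrays. All brown knockout arrays lay below the brown controls, with a difference of −1.72 ± 0.51 (SE, adjusted p = 0.62). With the slide as a block the difference was −1.67.

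Cyp4b1, a fatty acid and arylamine hydroxylase, read 3.01, 2.90, 2.86 and 2.89 on white knockout arrays, against 3.21, 3.39, 3.30 and 3.22 on white control arrays. It read 2.47, 1.72, 1.76 and 1.76 on brown knockout arrays, against 2.53, 2.38, 2.20 and 2.86 on brown control arrays. The white groups did not overlap but lay close together, and the differences were −0.33 ± 0.31 (SE, adjusted p = 0.67) in white and −0.45 ± 0.28 (SE, adjusted p = 0.62) in brown fat. Cyp4f16 overlapped between genotypes in both fats, with differences of −0.01 in white and −0.09 in brown fat, and its second kept probe gave −0.91 and 0.02. Cyp4v3, the mouse counterpart of the human gene of a corneoretinal crystalline dystrophy, differed by −0.46 in white and 0.23 in brown fat. Cyp4a10 and Cyp4a14, PPAR-alpha targets in liver, differed by −0.53 and −0.23 in white and by −0.13 and −1.24 in brown fat, and Cyp4f13 and Cyp4f14 by −0.21 and −0.23 in white and by −0.06 and −1.19 in brown fat.

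Cyp4f18, which inactivates leukotriene B4 in mouse neutrophils, had a higher mean in knockout fat but split within the groups. It read −0.38, 1.77, 1.95 and 1.96 on white knockout arrays, against −0.28, 0.61, 0.57 and −0.29 on white control arrays. White knockout array 1 lay below all white controls, and arrays 2 to 4 lay above all of them. Brown fat gave −0.25, 1.41, 1.39 and 1.49 on brown knockout arrays, against 0.53, −0.73, −1.11 and −1.58 on brown control arrays. There knockout arrays 2 to 4 lay above all controls and array 1 among them. The 12 markers of T, B and NK cells had a median of 2.80 in the white and 2.18 in the brown sample made of knockout arrays 2, 3 and 4. They had medians of −1.84 on white and 0.70 on brown knockout array 1, against −2.35 and 0.41 in the white controls and −3.79 to −2.34 in the brown controls. Their summed linear level ranged from 6.47 to 128 in white knockout, 3.5 to 23.8 in white control, 22.2 to 82.0 in brown knockout and 1.0 to 16 in brown control fat. Their part in the levels of Cyp4f18 was not tested.

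Cyp2e1, which oxidises ethanol and acetone, split the same samples in the other direction. It read 5.29, 1.15, 1.11 and 1.01 on white knockout arrays, against 4.89, 3.65, 3.80 and 4.85 on white control arrays. White knockout array 1 was above all white controls, and arrays 2 to 4 were below all of them. In brown fat it read 4.32, 0.62, 0.78 and 0.78 on brown knockout arrays, against 2.39, 2.79, 2.85 and 2.56 on brown control arrays. Brown knockout array 1 was again above all controls and arrays 2 to 4 below all of them. The differences of the means were −1.11 ± 1.52 (SE, adjusted p = 0.77) in white and −0.06 ± 1.39 (SE, adjusted p = 0.99) in brown fat, so the SE was larger than either. The adipocyte markers had a median of 4.48 in white knockout arrays 2, 3 and 4, against 5.77 on white knockout array 1 and 6.62 to 7.0 in the white controls. In brown fat these medians were 5.37 in knockout arrays 2, 3 and 4 and 5.04 on knockout array 1, against 5.5 to 6.30 in the controls.

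**Figure D3:**
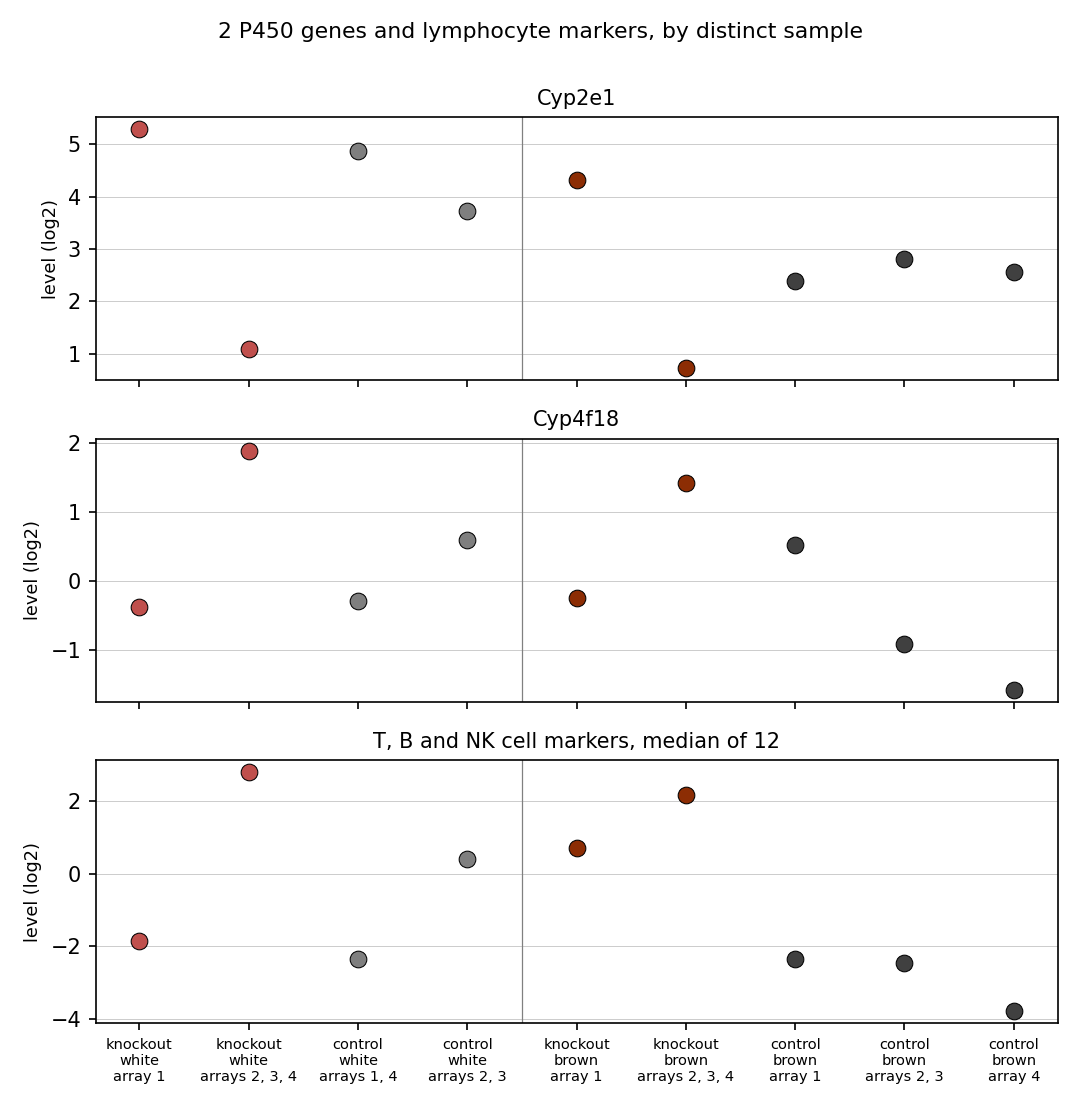
Level of Cyp2e1, level of Cyp4f18 and median level of 12 markers of T, B and NK cells (all log2, relative to the array's 75th percentile) in each of the 9 distinct samples, white fat left of the line and brown fat right of it. Knockout arrays 2, 3 and 4 hold the lowest Cyp2e1 and the highest Cyp4f18 of their fat.

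Both CYP1 genes are known as targets of the aryl hydrocarbon receptor. Cyp1a1 read −0.80, −2.55, −2.43 and −2.40 on white knockout arrays, against −0.68, −0.46, −0.77 and −0.81 on white control arrays. White knockout array 1 sat among the controls and the other knockout arrays lay below them, with a difference of −0.95 ± 0.58 (SE, adjusted p = 0.56). Cyp1b1 read 0.75, 1.47, 1.39 and 1.47 on white knockout arrays, against −0.46, 0.86, 0.98 and −0.28 on white control arrays. Its white difference was 0.82 ± 0.51 (SE, adjusted p = 0.57), and its white groups overlapped. In brown fat the differences were −0.06 for Cyp1a1 and 0.17 for Cyp1b1.

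The CYP2C and CYP2J genes include epoxygenases of arachidonic acid. Of these 11, 8 averaged lower in white knockout fat and 10 in brown knockout fat, or 6 without brown control array 4. Cyp2j6 read −0.51, −2.12, −1.81 and −1.87 on white knockout arrays, against 0.00, −0.07, −0.04 and −0.07 on white control arrays. These groups did not overlap, and the difference was −1.18 ± 0.58 (SE, adjusted p = 0.53). Cyp2j9 read 1.41, −0.88, −0.62 and −0.70 on white knockout arrays, against 1.52, 1.22, 1.18 and 1.42 on white control arrays. White knockout array 1 lay among the controls and arrays 2 to 4 below them, with a difference of −1.0 ± 0.62 (SE, adjusted p = 0.57). In brown fat Cyp2j6 differed by −0.25 and Cyp2j9 by −0.33. Cyp2j13 and Cyp2j11 differed by −0.79 and −0.71 in white and by −0.23 and −1.24 in brown fat, and the second kept probe of Cyp2j11 gave 0.37 and 0.29.

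In brown fat Cyp2c37 read −3.42, −3.93, −3.72 and −3.98 on brown knockout arrays, against −2.61, −3.32, −3.05 and −3.08 on brown control arrays. The knockout arrays lay just below the controls, and the difference was −0.69 ± 0.25 (SE, adjusted p = 0.62). Its second kept probe gave −0.01 in brown fat. In white fat it read −3.68, −5.09, −3.82 and −1.84 on white knockout arrays, against −3.72, −3.96, −3.76 and −3.97 on white control arrays, and knockout arrays 2 and 4, counted as 1 sample, lay far apart. The knockout effect in brown minus that in white fat was −0.91. Cyp2c65 read −4.32, −5.77, −4.53 and −4.98 on white knockout arrays, against −5.04, −4.81, −5.92 and −7.10 on white control arrays. It read −5.63, −5.84, −4.67 and −8.54 on brown knockout arrays, against −4.44, −4.30, −5.27 and −5.64 on brown control arrays. Its arrays overlapped in both fats, its mean was higher in white knockout and lower in brown knockout fat, and the difference of effects was −2.04. Cyp2c65 was detected in full only in brown control fat, so its lower mean in brown knockout fat was not free. The next smallest p of this kind was that of Cyp3a25, at −2.60, whose white levels were almost all not above background, and none of the 3 passed adjustment.

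Cyp2c40 read −7.0, −6.55, −7.03 and −5.57 on brown knockout arrays, against −5.25, −3.92, −3.80 and −0.82 on brown control arrays. The groups did not overlap, but control array 4 stood 3.74 log2 units above the mean of the other 2 control samples and only 1 of 4 knockout arrays was well above background. The difference was −3.38 ± 1.37 (SE, adjusted p = 0.62), and without brown control array 4 it was −2.13. Cyp2c40 was detected in full only in brown control fat, so its direction there was not free and these values are no test of it. The other members of the subfamily, Cyp2c23, Cyp2c29, Cyp2c55 and Cyp2c70, had no p below 0.05 in either fat, with differences from −1.41 (Cyp2c29, brown) to 0.28 (Cyp2c55, brown).

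Of the remaining 14 CYP2 genes, 12 averaged lower in white knockout fat and 11 in brown knockout fat. The CYP2B subfamily includes genes that phenobarbital-like compounds induce in mouse liver, which was not examined here. Cyp2b13 had the smallest p of all members in brown fat, where it read −6.82, −6.70, −6.78 and −5.92 on brown knockout arrays, against −4.83, −4.10, −5.86 and −3.71 on brown control arrays. All knockout arrays lay below the controls, 3 of the 4 of them not well above background. Cyp2b13 and Cyp2b9 were detected in full only in brown control fat. Their direction in brown fat was therefore not free, and the values given here are no test of it. The Cyp2b13 difference was −2.13 ± 0.52 (SE, adjusted p = 0.62), within 1 slide −1.97, and with the slide as a block −1.42. Cyp2b9 read −4.89, −5.87, −7.11 and −7.09 on brown knockout arrays, against −3.93, −2.52, −5.67 and −2.03 on brown control arrays. Control array 3 lay among the knockout arrays, although it is averaged with control array 2, and the difference was −2.44 ± 0.82 (SE, adjusted p = 0.62). Within 1 slide the Cyp2b9 difference was −1.53, and with the slide as a block −0.54. Over the 9 samples the members most like Cyp2b13 were Cyp2c40 (Pearson r = 0.88), Cyp4f14 (r = 0.84) and Cyp27a1 (r = 0.75). Cyp2b13 and Cyp2c40 passed the detection rule through the same group only, so their likeness is a description.

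The CYP2D genes act on drugs and amines. Cyp2d22 read −1.24, −3.37, −3.32 and −3.26 on white knockout arrays, against −0.75, −1.32, −1.25 and −0.83 on white control arrays. White knockout array 1 lay within the range of the controls and arrays 2 to 4 below it, for a difference of −1.24 ± 0.65 (SE, adjusted p = 0.53). Without that array the difference was −2.28 (adjusted p = 0.037). Both of its kept probes gave like differences, −1.24 and −1.16 in white and −0.68 and −0.66 in brown fat. Cyp2d9, Cyp2d10, Cyp2d12 and Cyp2d26 had differences of −1.0 to −0.25 in white and of −1.38 to −0.59 in brown fat, with no p below 0.05. Cyp2d26 lacked a value on brown knockout array 4, which was left out of its mean. Cyp2a22, Cyp2a4, Cyp2b19, Cyp2s1 and Cyp2w1 differed by −0.47 to 0.62 in white and by −0.39 to 0.48 in brown fat, likewise with no p below 0.05. The probe used for Cyp2a4 gave 0.62 in white and 0.03 in brown fat. Its other probes, not kept by the detection rule, gave −1.53 and −1.55 in white and −2.13 and −4.42 in brown fat. Each of those was well above background on 3 of 4 brown control and 0 of 4 white knockout arrays. Without white knockout array 1, 5 members passed in white fat (Cyp20a1, Cyp2d22, Cyp2f2, Cyp2j9 and Cyp2u1), when 11% of all genes did. The lone white knockout sample is then assumed to vary like the other groups.

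The 3 CYP3A genes, drug and steroid hydroxylases of liver and gut, had lower means in brown knockout fat, and 0 had a p below 0.05 in either fat. Cyp3a11 read −4.70, −4.09, −4.08 and −4.17 on brown knockout arrays, against −3.87, −3.96, −4.23 and −2.28 on brown control arrays. Its brown difference was −0.99 ± 0.54 (SE, adjusted p = 0.62), and in white fat it was 0.04. Cyp3a25 differed by −1.51 ± 0.79 (SE, adjusted p = 0.62) and Cyp3a57 by −0.85 in brown fat. In white fat Cyp3a25 was above background on 1 knockout array and 0 control arrays, and Cyp3a57 on 0 arrays of either genotype, so no white direction is given for them.

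Partners of the P450 enzymes were set beside them, from lists chosen with earlier results known. Of 6 electron donors, 5 averaged lower in white knockout fat and 4 in brown knockout fat, with 2 and 0 at an unadjusted p below 0.05, against 9.96% of all genes in white and 7.04% in brown fat, and 0 passed adjustment. Por, the reductase that feeds all microsomal P450s, averaged 5.27 in white knockout and 5.62 in white control fat, and 5.36 in brown knockout and 5.13 in brown control fat. Cyb5a, the cytochrome b5 that can pass the second electron, differed by −1.37 in white and −0.55 in brown fat. Of 13 genes of haem synthesis and breakdown, 11 had lower means in white and 11 in brown knockout fat, with 4 and 0 at p below 0.05. Of the 17 tested sensors of xenobiotics and lipids, 10 and 12 had lower means, with 2 and 1 at p below 0.05. Of the 11 tested genes for conjugation and other oxidation, 9 and 7 had lower means, with 4 and 3 at p below 0.05. Sult1a1, a phenol sulphotransferase, differed by −1.97 in white and −1.35 in brown fat, neither past adjustment. Cyp51, which demethylates lanosterol in cholesterol synthesis and falls outside the symbol rule, differed by −1.46 in white and −0.73 in brown fat.

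The second question was how P450 genes differ between brown and white fat. In control mice 2 of 51 members passed the threshold, Cyp3a25 and Cyp4f39, both higher in brown fat, when 5.07% of all genes passed and 3.93% passed as higher. The count of 2 was near that background. Cyp3a25 passed the detection rule only through brown fat and so had to be higher there, which leaves Cyp4f39 as the called member whose direction the rule did not fix. In knockout mice 0 of 51 passed, when 1.51% of all genes did, with 6 members lower and 3 higher in brown fat at an unadjusted p below 0.05, against 7.0% of all genes lower and 8.34% higher. In control mice 6 members were lower and 5 higher at that level, against 9.26% of all genes lower and 13.6% higher. These counts were not far from the background. The 5 higher include Cyp3a25, Cyp3a57 and Cyp2b9, which were detected in full only in brown groups. Their direction was therefore not free, and the count of higher members is no test of the order. No slide held control arrays of both fats, so the slide block compares them only through the knockout arrays. The summed linear level of the muscle markers was 3063 to 4239 in brown control and 3.51 to 4.85 in white control fat, and its part in these differences was not tested.

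Cyp3a25, a steroid and drug hydroxylase of mouse liver and gut, read −2.11, −1.0, −0.80 and −3.92 on brown control arrays, against −7.24, −8.02, −6.77 and −8.12 on white control arrays. Brown and white controls did not overlap, and 0 of the 4 white control arrays were well above background. On this scale the mean level was at least 12.9-fold higher in brown control fat, where the measured means were −2.31 in brown and −7.54 in white fat. The difference was 5.23 ± 0.79 (SE, adjusted p = 0.014). With normexp background correction it was 1.93, so the least fold depends on the background correction. A second Cyp3a25 probe, not kept by the detection rule, gave 2.59. It was well above background on 3 of 4 brown control, 0 of 4 white control and 0 of 4 brown knockout arrays. In knockout mice the probe used for Cyp3a25 read −4.26, −3.56, −3.19 and −3.36 on brown knockout arrays, against −6.31, −6.61, −5.26 and −7.87 on white knockout arrays. These groups did not overlap, with a difference of 2.63 ± 0.87 (SE, adjusted p = 0.24). Cyp3a57 read −2.15, −0.98, −0.78 and −5.83 on brown control arrays, against −6.44, −6.97, −6.44 and −8.06 on white control arrays. Brown control array 4 lay far below the other brown controls and just above the white ones. Well above background were 3 of 4 brown control and 0 of 4 white control arrays. The difference was 4.02 ± 1.29 (SE, adjusted p = 0.13). No least fold is given, because the brown mean includes a reading not above background. Without brown control array 4 the adjusted p was 0.0067 for Cyp3a57 and 0.0038 for Cyp3a25. Both genes passed the detection rule only through brown fat, so these p-values are no independent support for the order. The third gene of the subfamily, Cyp3a11, differed by −0.05 between brown and white control fat.

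Cyp4f39 read −2.20, −0.54, −0.56 and −1.78 on brown control arrays, against −4.50, −4.55, −5.84 and −5.36 on white control arrays. All brown control arrays lay above all white ones, and the difference was 3.55 ± 0.51 (SE, adjusted p = 0.012). In knockout mice it read −3.09, −3.27, −3.47 and −3.42 on brown knockout arrays, against −5.23, −5.40, −7.11 and −5.84 on white knockout arrays. These did not overlap either, with a difference of 2.44 ± 0.56 (SE, adjusted p = 0.10). With the slide as a block, the control difference was 5.18 for Cyp4f39 (adjusted p = 0.070) and 5.04 for Cyp3a25 (adjusted p = 0.42), so neither call held. With normexp background correction the differences were 2.06 (adjusted p = 0.026) and 1.93 (adjusted p = 0.098). Without white control arrays 1 and 4, 0 members passed, and likewise without white control arrays 2 and 3. Without brown control array 1, Cyp3a25 had an adjusted p of 0.058.

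**Figure D4:**
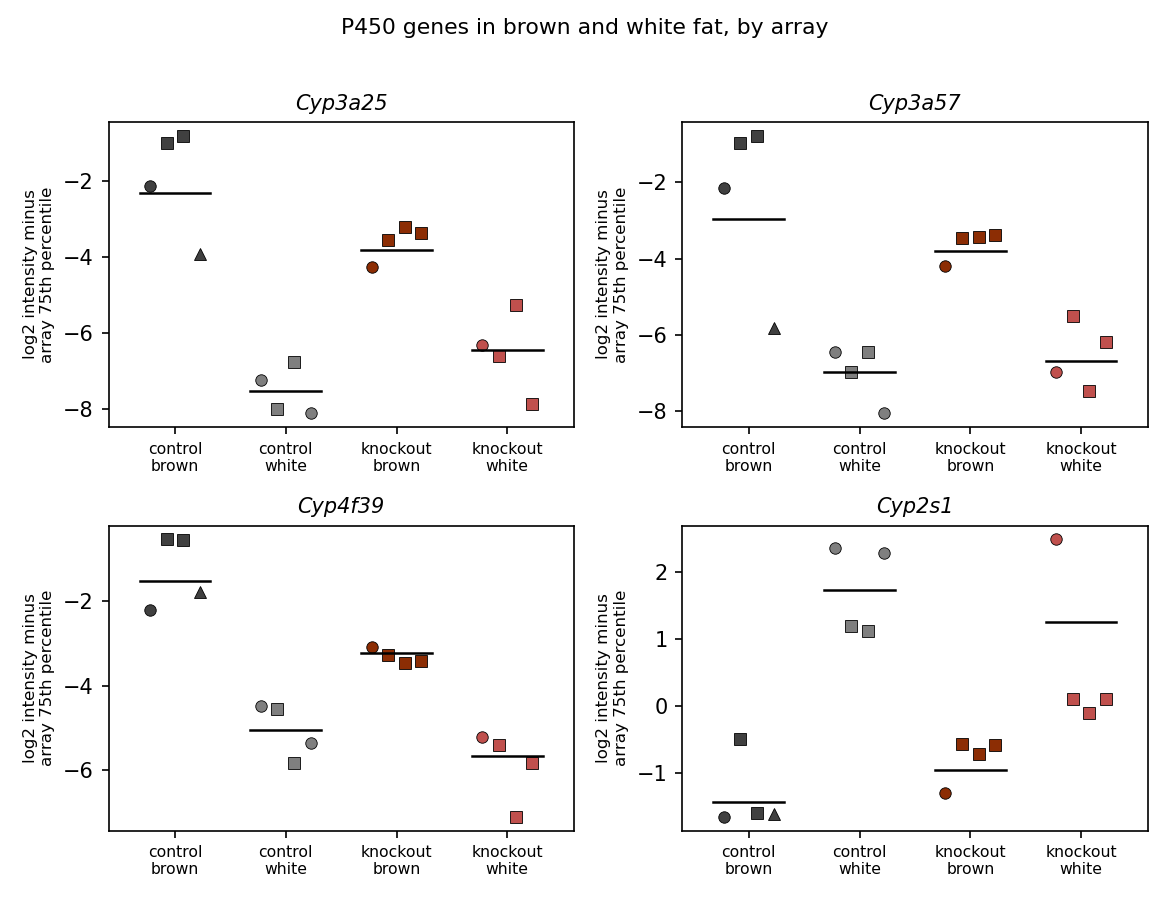
Levels of Cyp3a25, Cyp3a57, Cyp4f39 and Cyp2s1 on each array (log2 intensity minus the array's 75th percentile), brown left of white fat, first in control and then in knockout mice; points of 1 shape within a group are arrays averaged as 1 sample, and bars are means over samples. The 2 Cyp3a genes and Cyp4f39 lie higher in brown fat and Cyp2s1 lower; brown control array 4 (triangle) is the lowest brown control array of both Cyp3a genes.

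On the other side, Cyp2s1, an enzyme of epithelia that acts on retinoids and lipid peroxides, read −1.65, −0.48, −1.59 and −1.60 on brown control arrays, against 2.35, 1.2, 1.12 and 2.29 on white control arrays. Every brown control array lay below every white one, with a difference of −3.17 ± 0.72 (SE, adjusted p = 0.055). In knockout mice it read −1.29, −0.56, −0.72 and −0.58 on brown knockout arrays, against 2.49, 0.10, −0.09 and 0.11 on white knockout arrays, with a difference of −2.22 ± 0.79 (SE, adjusted p = 0.26). Markers of mesothelium, an epithelial lining of some white depots, had medians of −4.15 to −3.16 in brown control and 0.25 to 1.67 in white control samples. Of the 7 tested, 4 were called lower in brown control fat, Lrrn4 had a lower mean, and the keratins Krt8 and Krt19 had higher means there, by 2.97 and 0.99, neither past adjustment. Their summed linear level, 9.33 to 53.7 in brown control and 16.2 to 32.0 in white control fat, overlapped. Their part in the level of Cyp2s1 was not tested. Cyp7b1 read −2.51, −1.41, −1.37 and −1.40 on brown knockout arrays, against 0.38, −0.25, −0.07 and −0.14 on white knockout arrays. It had the smallest p between the fats of knockout mice, −2.06 ± 0.45 (SE, adjusted p = 0.092), and differed by −1.25 ± 0.41 (SE, adjusted p = 0.14) between those of control mice.

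Cyp1a1 read −2.28, −3.18, −2.93 and −1.92 on brown control arrays, against −0.68, −0.46, −0.77 and −0.81 on white control arrays. The brown controls lay below the white ones, with a difference of −1.74 ± 0.53 (SE, adjusted p = 0.11). Cyp4b1 differed by −0.72 ± 0.28 (SE, adjusted p = 0.19) and Cyp4f16 by −0.74 ± 0.28 (SE, adjusted p = 0.18) between the fats of control mice, and by −0.84 and −0.82 between those of knockout mice, with no overlap of arrays in any of these 4 comparisons. Cyp4f16 read −0.67, −1.33, −1.03 and −0.66 on brown control arrays, against −0.11, −0.06, −0.10 and −0.11 on white control arrays. Its second kept probe gave a control difference of −1.08. Cyp2c37 read −2.61, −3.32, −3.05 and −3.08 on brown control arrays, against −3.72, −3.96, −3.76 and −3.97 on white control arrays. Its brown controls all lay above the white ones, with a difference of 0.89 ± 0.25 (SE, adjusted p = 0.094). Cyp2b9 read −3.93, −2.52, −5.67 and −2.03 on brown control arrays, against −5.58, −5.39, −6.60 and −6.01 on white control arrays. These arrays overlapped, and the difference was 2.54 ± 0.82 (SE, adjusted p = 0.13). In knockout mice Cyp1b1 read −0.53, 0.04, −0.02 and 0.12 on brown knockout arrays, against 0.75, 1.47, 1.39 and 1.47 on white knockout arrays. Its brown arrays all lay below the white ones, with a difference of −1.34 ± 0.51 (SE, adjusted p = 0.29). Cyp2f2, whose knockout arrays lay above the white ones in brown fat, differed by 2.66 ± 0.95 (SE, adjusted p = 0.26). Cyp2c65 and Cyp17a1 had lower means in brown knockout fat, by −1.28 ± 0.50 (SE, adjusted p = 0.30) and −0.38 ± 0.19 (SE, adjusted p = 0.39).

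Brown control array 4 stood apart for these genes. On it, 19 of 51 members lay more than 1 log2 unit above the mean of the other 2 brown control samples, against 5.69% of all genes. They were led by Cyp2c40 (3.74 above), Cyp2j11 (3.65), Cyp2c29 (3.16), Cyp4a14 (2.83), Cyp2d26 (2.57) and Cyp2c70 (2.39), which makes muricholic acids in mouse liver. In levels, Cyp2c29 read −5.43, −4.65, −4.53 and −1.85 on brown control arrays 1 to 4, and Cyp2j11 read −4.92, −6.13, −5.57 and −1.73. Members more than 1 log2 unit below the mean of the other 2 samples were Cyp3a57 (−4.31), Cyp3a25 (−2.41), Cyp26b1 (−2.12), Cyp4f18 (−1.38), Cyp2w1 (−1.18) and Cyp2c65 (−1.03). All 10 tested hepatocyte markers were highest on that array among the brown controls, by 0.53 to 5.22 with a median of 3.0. Alb, which encodes albumin, read 3.09 there, against −0.55 on brown control array 1 and −0.29 on arrays 2 and 3.

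The summed linear level of the hepatocyte markers ranged from 0.49 to 0.82 in white knockout, 1.57 to 2.55 in white control, 1.01 to 2.29 in brown knockout and 2.45 to 22.2 in brown control fat. On no array of the group did 2 of them in white knockout fat and 1 in brown knockout fat pass the background test, against 0 in both control groups. Their part in the P450 levels was not tested. Leaving out brown control array 4, 0 members passed in the knockout comparison of brown fat, and 35 of 51 had lower knockout means with a median of −0.24, against 57.5% and −0.09 for all genes. The sign then turned for 11 of 51 members, to a higher knockout mean for 9 and to a lower one for 2. By role, lower knockout means without that array against with it numbered 5 against 4 for the steroid and oxysterol genes, 2 against 4 for the vitamin D and retinoic acid genes, 6 against 8 for fatty acid hydroxylation, 0 against 1 for CYP1, 6 against 10 for CYP2C and CYP2J and 12 against 11 for the remaining CYP2 genes. The 3 CYP3A genes and Cyp20a1 stayed lower. The brown differences were then −1.74 for Cyp2b13, −1.78 for Cyp2b9, −0.72 for Cyp27a1, −2.96 for Cyp2f2 and −1.77 for Cyp20a1. They were −0.03 for Cyp2j11, −0.36 for Cyp2c29, −0.29 for Cyp4a14, −0.53 for Cyp4f14, −0.08 for Cyp2d10, −0.53 for Cyp2d26 and −0.43 for Cyp3a11, each less than in the comparison with all arrays.

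**Figure D5:**
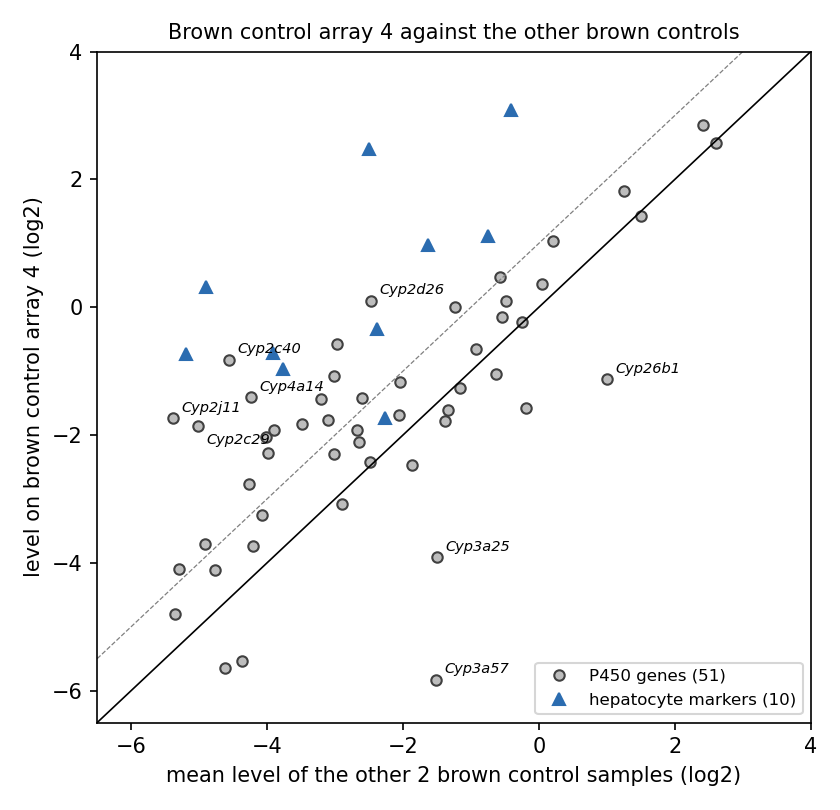
Level on brown control array 4 (vertical) against the mean level of the other 2 brown control samples (horizontal), both log2 relative to the array's 75th percentile, for the 51 P450 genes (circles) and 10 hepatocyte markers (triangles). The solid line marks equal levels and the dashed line 1 log2 unit above, beyond which 19 P450 genes lie, while Cyp3a25, Cyp3a57 and Cyp26b1 lie well below equality.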

How the data were processed

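RNA from white and brown fat was hybridised to 1-colour (Cy3) Agilent arrays. Per the file headers, the deposited intensities come from Agilent Feature Extraction 12.0.0.7. A second deposited table of intensities equalled the mean over a probe's spots of the scanner's processed signal (within 0.01%) for all 41174 probes and was used as an unscaled alternative. Probes were named through RefSeq accessions: 28223 matched, giving 19096 symbols, and 12951 stayed unnamed.

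From the deposited intensities, log2 processed signal minus the array's 75th percentile was computed. Outlier spots were left out, spots of a probe were averaged, and of a gene's probes that passed the detection rule (well above background on each of a group's 4 arrays) the brightest was used. Arrays of a group were averaged where the median absolute deviation of their difference over the scanner error was under 1 (10067 bright probes). Over the 24 pairs, 9 lay at 0.37 to 0.66 and 15 at 1.10 to 4.28. Means per group were fitted with limma 3.58.1 in R 4.3.3 (eBayes, 5 residual degrees of freedom, Benjamini-Hochberg over 15460 genes, threshold 0.05). The same fit was also run on data simulated from the means and spread of these samples, with noise independent between genes and samples. Python 3.11, pandas 2.3.3 and matplotlib 3.10.9 were used for tables and figures. The number of arrays limits the precision.

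The members and lists were chosen with earlier results of these data known. Per-array values were given for every called member, the 8 members with the smallest p in each knockout comparison, 10 in each tissue comparison, 3 in the difference of effects, the brightest member of each role group, and a few members named after their values were seen (Cyp4f18, Cyp2c29). Alternatives covered the background, scaling, filter, probe choice, variance prior, slide, replicate number and left-out arrays or samples. The normexp alternative used the median signal, because the files hold no mean-signal column. Replicate numbers of knockout brown and white fat correlated in their deviations (r = 0.57, 0.44, 0.47 and 0.29), a pairing read from the data and not from the labels. Other pairs of groups had mixed signs or values under 0.1.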

Additional observations from a re-analysis of the deposited data

How the results depend on the processing

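For the knockout comparisons, 0 members passed in either fat. Counting the 16 arrays as separate samples gave 15 in white and 12 in brown fat, and the replicate block on those arrays gave 16 and 13. These fits count repeat arrays as samples. A replicate block on the distinct knockout samples called 0 members between the fats. Leaving out 1 array at a time gave 0 to 5 in white fat, with 5 without white knockout array 1, and 0 to 0 in brown fat and for the difference of effects. Between brown and white control fat, 2 members passed. The count was 17 with 16 arrays, 17 with the replicate block, 0 with the slide as a block, 1 with normexp and 0 with detection required on all 16 arrays, where neither gene is tested. It was 0 without white control arrays 1 and 4, 0 without arrays 2 and 3, 5 without white knockout arrays 2, 3 and 4, and 1 to 5 over single arrays left out, with 1 without brown control array 1. Of 2 alternatives chosen after seeing the data, white control arrays as 1 sample gave 0, and leaving out both 3-array knockout samples gave 6. Between the fats of knockout mice 0 passed, against 10 with 16 arrays, 10 with the replicate block, 1 with the slide block, 2 without white knockout arrays 2, 3 and 4, 1 without brown control arrays 2 and 3, and 2 without both 3-array samples. With the slide block, Cyp2c37 turned to −1.46 between control fats and Cyp17a1 to 0.30 between knockout fats. Where the construction (fewer samples, repeat arrays counted) does not show it, the cause was not tested. Over 39 results for single genes, 1207 alternative values kept direction and side of the threshold, 10 lost a call, 77 gained one and 2 reversed. Of the gained calls, 29 came with 16 arrays as separate samples and 29 with the replicate block on them. Only the 2 members called between control fats had passed in the main fit. Most kept values are therefore uncalled results that stayed uncalled, and the tally does not measure how firm a result is. A lone sample left in an arm is assumed to vary like the other groups. Probes near background, such as those of Cyp2b13, Cyp2c40 and Cyp2c65, differ widely even between repeat arrays.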
